A study of Mus musculus with 6 samples.

Results

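The ADAM, ADAMTS, ADAMTS-like and matrix metalloprotease (MMP) genes and their TIMP inhibitors were compared between islets of mice with a tamoxifen-induced deletion of Nkx6.1, an islet transcription factor gene, and control islets. Members were taken by name from the non-control probes of the arrays, as every gene called Adam, Adamts, Adamtsl or Mmp with a number, and Timp1 to Timp4. The rule gave 83 genes, read by 112 probes, of 31829 gene names on the array. RNA came from 6 pooled islet samples, 3 mutant and 3 control, named A, B and C in each group, and each was labelled with Cy3 and hybridised to its own single-colour Agilent array. Mutant mice carried Nkx6.1fl/-;Pdx1-CreERTM and control mice Nkx6.1fl/+;Pdx1-CreERTM, on a cross of Nkx6.1-flox (FVB/N x C57Bl/6J) with Pdx1-CreERTM (Cd1 X C57Bl/6J). All mice were male and 6 weeks old, and both groups had been given tamoxifen 4 times after 4 weeks of age, each dose 2 mg per 25 g of body weight. Each sample pooled 2 pancreata of 1 genotype, so the 3 samples of a group are separate pools. The Pdx1 promoter drives a tamoxifen-inducible Cre in pancreatic cells, and control mice carry it too. Mutant mice have a null allele opposite the floxed allele before tamoxifen, while control mice keep 1 wild-type allele, so the comparison covers more than the induced deletion.

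These genes encode the enzymes that cut proteins at and outside the cell surface. ADAM proteins are membrane-anchored, and those with an active site release the outer parts of receptors, ligands and adhesion molecules, a step called shedding. ADAMTS proteins are secreted and cut proteoglycans and procollagens, ADAMTS-like proteins share their matrix-binding parts but have no protease, and MMPs degrade collagens, laminins and other matrix. TIMPs are secreted inhibitors of MMPs and of some ADAM and ADAMTS proteases. In islets, such enzymes are known from shedding at the beta-cell surface and from turnover of the basement membrane around islet capillaries. Many ADAM genes of rodents are known mainly from testis and epididymis.

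The probes behind the called differences, with the probes they are read against, are shown here as deposited, each 60 bases long and written 5′ to 3′ with its mm9 position. The first pair reads Adam32 at sites 34.5 kb apart, and only the first of them gave signal in islets. In the next pair, for Adam25 and its neighbour Adam39, capitals mark the longest run of bases that both probes share, 21 bases. In their overlap 32 of 35 bases are identical, so RNA of either gene could bind both probes, and the signals of the 2 genes may not be separate. The last pair reads Timp2, and it carries the only other member probe called when each probe was fitted on its own. The second Timp2 probe is placed over a span longer than its 60 bases.
Adam32, detected probe, chr8:25946632-25946691, minus strand: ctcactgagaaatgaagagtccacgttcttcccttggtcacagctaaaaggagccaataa
Adam32, undetected probe, chr8:25981159-25981218, minus strand: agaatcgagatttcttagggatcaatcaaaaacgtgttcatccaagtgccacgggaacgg
Adam25, chr8:41841247-41841306, plus strand: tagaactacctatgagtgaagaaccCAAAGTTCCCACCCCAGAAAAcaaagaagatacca
Adam39, chr8:41912135-41912194, plus strand: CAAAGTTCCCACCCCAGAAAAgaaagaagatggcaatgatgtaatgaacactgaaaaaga
Timp2, brighter probe, chr11:118163146-118163205, minus strand: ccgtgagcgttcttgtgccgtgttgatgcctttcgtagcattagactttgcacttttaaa
Timp2, other probe, chr11:118171964-118178741, minus strand: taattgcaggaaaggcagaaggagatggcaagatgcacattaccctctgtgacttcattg
Apart from Adam25 and Adam39, no probes of 2 different member genes shared a run of 15 bases or more. The longest run that either Adam32 probe shared with a probe of another gene was 13 bases. Whether each site lies in coding or untranslated sequence was not analysed here.

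Levels below are log2 signals relative to the 75th percentile of each array, so 0 is the signal that 75% of spots do not exceed, and a gene's value is that of its brightest tested probe. Differences are mutant minus control on the same scale, tested with limma across 22775 gene names with Benjamini-Hochberg adjustment, and a gene was called at an adjusted p under 0.05. The arrays correlated between 0.979 and 0.995 within groups and between 0.974 and 0.984 across groups. Mutant arrays A and B had fewer probes above background (66.8% and 63.9%) than mutant C (74.4%) and the control arrays (73.4% to 76.3%), and their lowest signals were higher (7.98 and 6.85, against 2.31 on mutant C and 2.83 to 3.31 on control arrays). The software marked mutant array A for evaluation. Nkx6-1 itself averaged 4.28 ± 0.20 in mutants and 4.76 ± 0.10 in controls (SD, n = 3 each), which did not pass the test (difference -0.48, limma adjusted p = 0.131). Whether its probe lies in the deleted part of the gene was not analysed here, so its level does not check the labels. Beta-cell markers, defining for islets, were all detected, with 3 of 8 called lower, where 1.12% of all genes tested were called lower.

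Of the 83 member genes, 53 were tested, which required signal well above background on all arrays of at least 1 group. On all 6 arrays 43 were above background, and 10 passed only through the control group, as did 2914 of the 22775 genes overall. None passed only through the mutant group. Member probes above background numbered 57, 55 and 69 in mutants A, B and C, and 69, 73 and 71 in controls A, B and C. The low counts on mutant arrays A and B move with their higher lowest signals, and the part of this in the 10 genes was not tested. A further 9 genes were detected on some arrays without completing a group: Adam2, Adam18, Adamts5, Adamts16, Adamts20, Adamtsl1, Mmp10, Mmp13 and Mmp27.

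By class, and with no test of the shares, detection in islets was as follows, beside 22775 of 31829 gene names tested on the whole array. All 3 ADAMs of neurons and all 4 TIMPs were tested, as were 8 of 9 sheddases, 14 of 19 ADAMTS genes, 6 of 17 secreted or other MMPs and 11 of 20 reproductive ADAMs. The 21 genes above background on no array included the collagenases Mmp1a, Mmp1b and Mmp8, the stromelysin Mmp3 and the gelatinase Mmp9. The others were Mmp19, Mmp20, Mmp21, the membrane-type Mmp16 and Mmp25, Adam28, Adamts3, Adamts19, Adamtsl3, and the reproductive Adam1b, Adam3, Adam6a, Adam24, Adam29, Adam30 and Adam34. No level can be given for these, only that their probes did not stand above background.

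**Figure D1:**
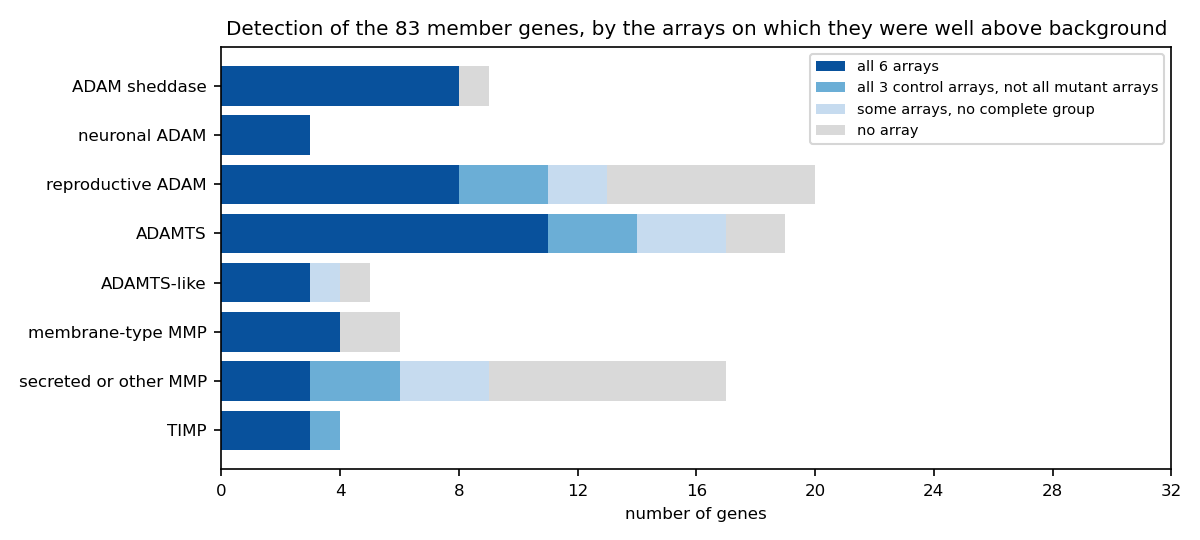
Number of member genes in each class (x axis, genes; classes down the page), stacked by where a probe of the gene stood well above background: on all 6 arrays, on all 3 control arrays but not all mutant arrays, on some arrays without a complete group, or on no array. All neuronal ADAMs and 8 of 9 sheddases were detected on all 6 arrays, while 8 of 17 secreted or other MMPs were detected on none.

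Among the 53 members tested, 2 fell in mutants, Adam32 and Adam25, and 0 rose. Over all genes tested 2.53% were called, and the background by direction was 1.12% of all genes tested called lower and 1.41% called higher, and the 2 members are 3.77% of those tested. At an unadjusted p under 0.05, 13 members were lower and 4 higher, with backgrounds of 11.1% and 9.09%. The groups did not overlap, with mutants lower, for 14 members (26.4%, background 14%), and with mutants higher for 4 members (7.55%, background 12.3%). Among the 43 members above background on all 6 arrays the counts were 12 lower (27.9%, against 13.3% of all such genes) and 4 higher (9.30%, against 13.8%), and no test was made of these shares. The median difference was -0.11 over the members tested and -0.025 over all genes tested. It was -0.022 over the 43 members above background on all 6 arrays, and 0.0022 over all such genes. The members' median was not stable in sign: it was 0.046 after normexp background correction and 0.074 with no filter on dim probes, against 0.027 and 0.053 over all genes.

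**Figure D2:**
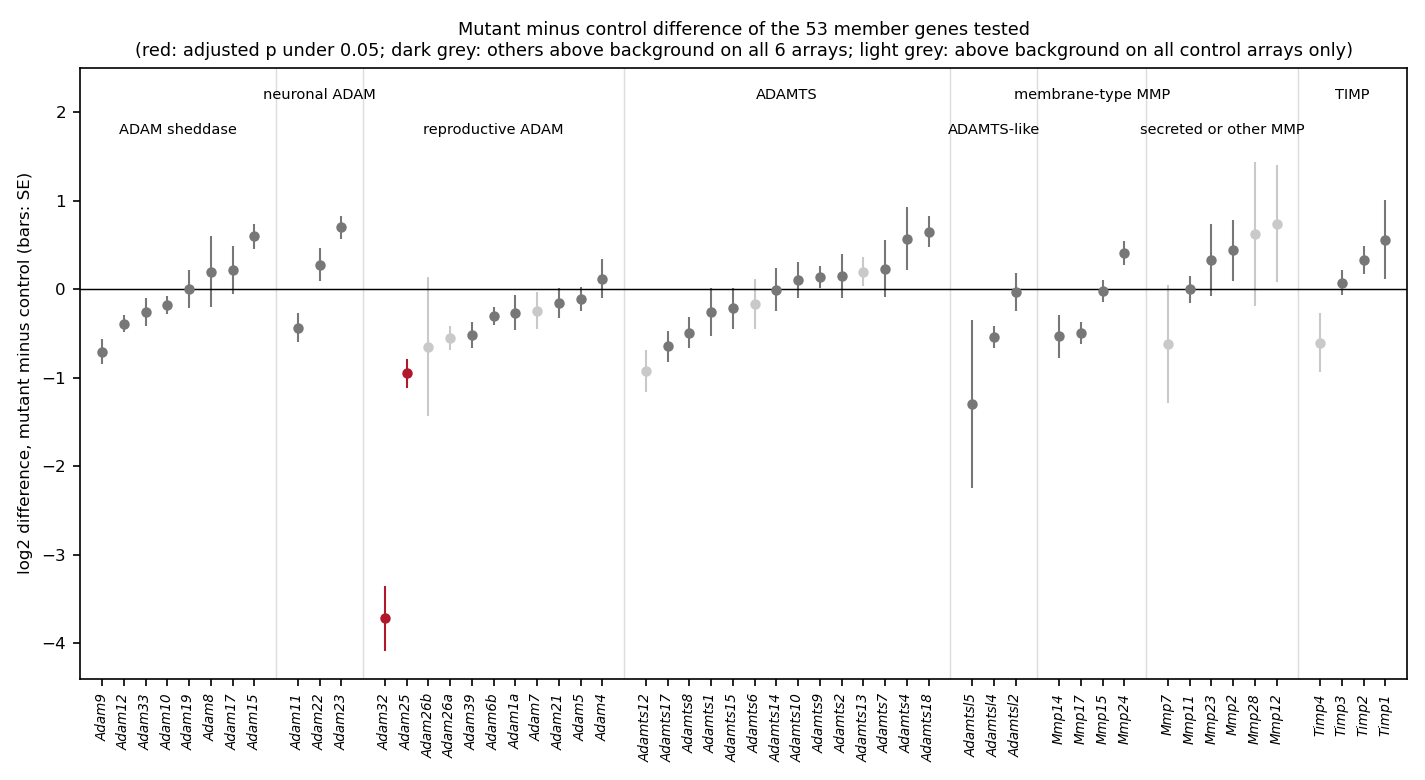
Mutant minus control difference of each of the 53 member genes tested (y axis, log2 difference; points with bars of 1 SE from limma), ordered within classes along the x axis, with genes called at an adjusted p under 0.05 in red and genes above background on all control but not all mutant arrays in light grey. Adam32 at -3.72 and Adam25 at -0.95 are the called genes, and the other points lie between -1.30 and 0.74.

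Of the ADAMs known mainly from testis and epididymis, 11 were tested, 2 fell and 0 rose, where 1.12% and 1.41% of all genes tested were called lower and higher. Adam32, a testis gene in the mouse, fell by 3.72 on the log2 scale (SE 0.36, 95% interval -4.61 to -2.83, limma adjusted p = 0.0155), which is 13.2-fold lower. Its detected probe read -2.01, -2.03 and -1.81 in mutants A, B and C, and 0.92, 2.29 and 2.11 in controls A, B and C. The 3 mutant samples lay within a narrow range and far below every control sample, and control A was the lowest of the controls. All 6 arrays were well above background for this probe, so the mutant level is a measured one. Within slide 1, which held mutants B and C and control A, the difference was -2.84, and within slide 2, which held mutant A and controls B and C, it was -4.21. A model that blocked on the slide gave an adjusted p of 0.0226. The difference was negative in all 20 alternatives and called in 14. Leaving out control B, control C, mutant B or mutant C ended the call, at adjusted p values of 0.0743, 0.0761, 0.0868 and 0.0535 in that order. The second Adam32 probe was above background on no array, so the change rests on 1 probe.

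Adam25, a testis gene of the mouse also called testase 2, fell by 0.95 (SE 0.16, limma adjusted p = 0.0466), which is 1.93-fold lower. It read -2.58, -2.45 and -2.91 in mutants A, B and C, against -1.50, -1.82 and -1.77 in controls A, B and C. The groups did not overlap, and the gap between them was larger than the spread within either. Its adjusted p passed the threshold narrowly: it was 0.0641 with slide as a block and between 0.0733 and 0.168 with any 1 of the 6 arrays left out. Adam39, whose probe shares the 21-base run printed in capitals above, read -2.67, -2.32 and -2.59 in mutants A, B and C, and -1.87, -2.21 and -1.95 in controls A, B and C. Its difference was -0.52 (SE 0.15) and did not pass (adjusted p = 0.135), though the groups did not overlap.

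The rest of the reproductive ADAMs did not pass. Adam26a was at -0.56 (SE 0.13, adjusted p = 0.0954) but at 0.10 after normexp background correction, and it was above background on 1 mutant array. Adam6b was at -0.30 (SE 0.10, adjusted p = 0.180), with mutants between -5.05 and -4.94 and controls between -4.81 and -4.63, and it was at -0.024 after normexp background correction. Neither gene's groups overlapped. Adam26b varied widely within both groups, from -5.89 to -4.38 in mutants and from -5.83 to -3.03 in controls. Adam7, known from epididymis, was not well above background on any mutant array and was above it on all 3 control arrays. Its signal was -6.86 ± 0.37 in mutants and -6.62 ± 0.15 in controls (SD, n = 3 each), and the mutant level is not a measured one. The control values, from -6.79 to -6.52, lay below the lowest signals above background on mutant arrays A and B, -5.91 and -5.75. No fall can be read on those arrays, and mutant C, at -6.70, lay within the control range. Adam1a, Adam5 and Adam21 lay between -0.27 and -0.11, and Adam4 at 0.12, with adjusted p values from 0.489 to 0.780. Of the 11 genes, 10 had a negative difference, 3 of them tested only through the control group, and the median was -0.30, against -0.025 over all genes tested. The share of negative differences over all genes was not computed here. With that share missing and 3 genes tested only through controls, no shift of the class can be read from the count or the median. Adam25 and Adam39 were counted apart, though their signals may not be separate.

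**Figure D3:**
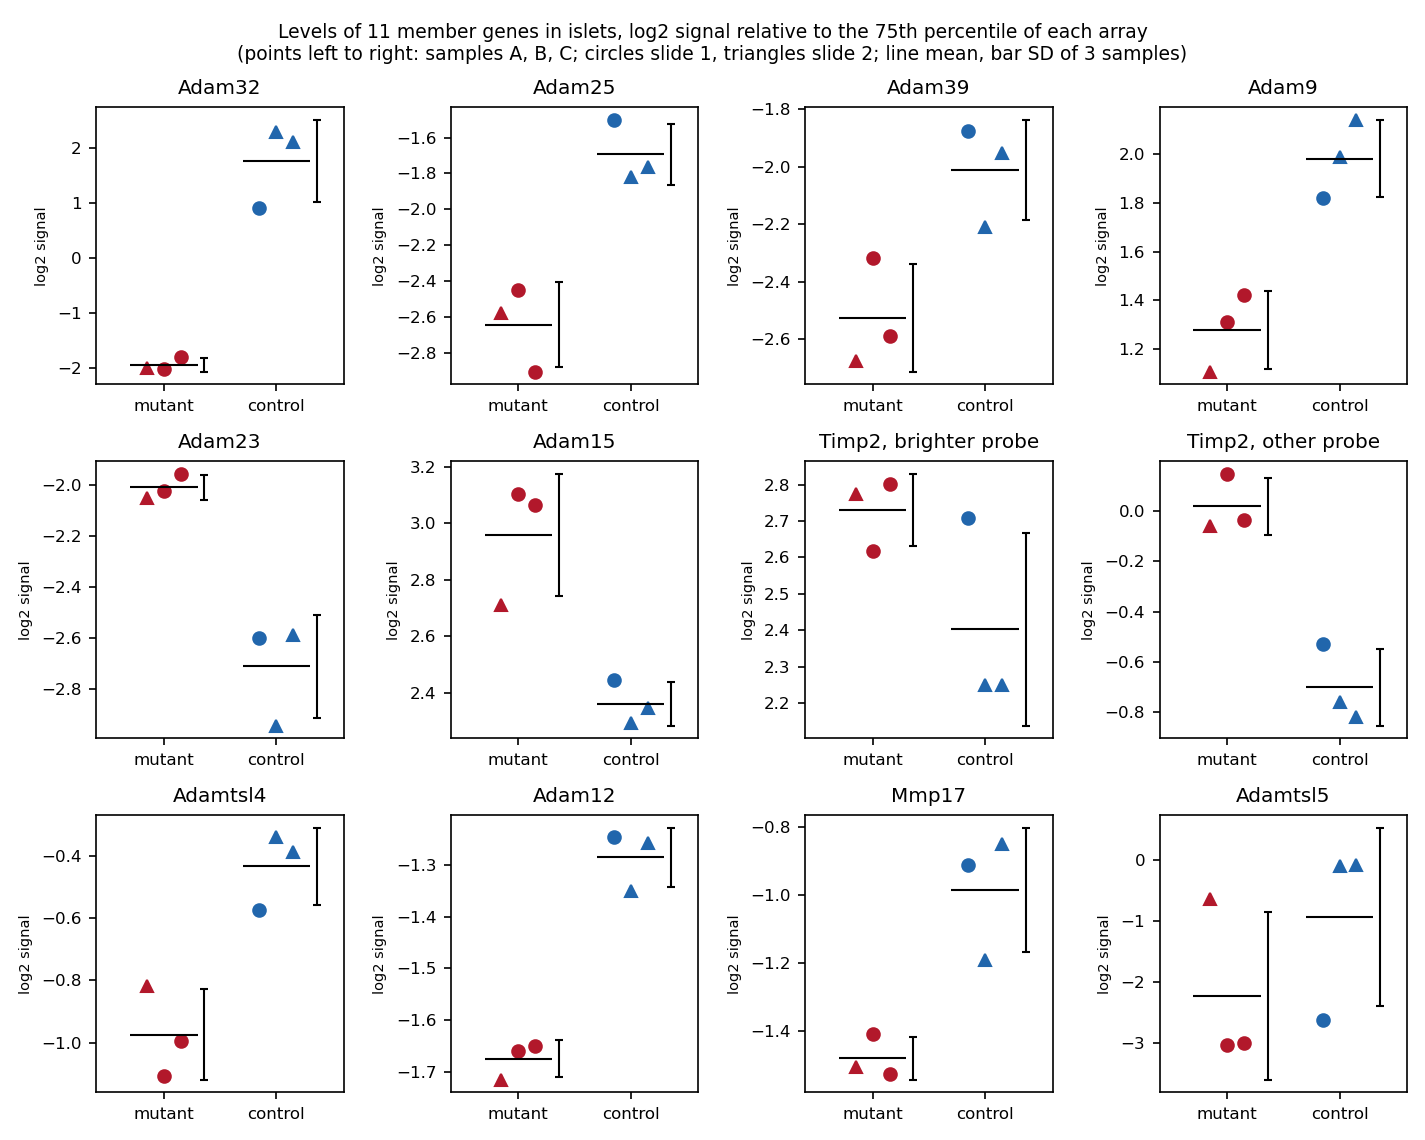
Level of 11 member genes in each islet sample (y axis, log2 signal relative to the 75th percentile of the array), mutants left of controls, with points for samples A, B and C, circles for slide 1 and triangles for slide 2, a line at the mean and a bar for the SD of 3 samples. Adam32 separates mutants near -1.95 from controls at 0.92 to 2.29, both Timp2 probes are shown, and Adamtsl5 is high on slide 2 and low on slide 1 in both groups.

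Both called genes lie among other ADAM genes on chromosome 8. In mm9, Adam18, Adam3, Adam5, Adam32 and Adam9 have probes that start between positions 25712756 and 26060251 there, and the 3 that were tested all had a negative difference. Of the 23 genes tested whose probes lie within 1000 kb of the Adam32 probe, Adam32 was the only one called. Adam9, at 113.6 kb on one side, was at -0.70 and Adam5, at -103.2 kb on the other, at -0.11 (adjusted p = 0.670). The next gene tested beyond Adam9, Tm2d2, at 186.8 kb, was at -0.24 (SE 0.13, adjusted p = 0.359). Adam24, Adam25 and Adam39 form another group, from 41767082 to 41912135, in which the 2 genes tested were both negative and Adam24 was not detected. The signals of Adam25 and Adam39 may not be separate. Adam26b, Adam26a and Adam34 lie together from 44605282 to 44735700. On other chromosomes, 1 of 2 tested neighbours was negative for Adam4 and Adam21 and for Adamts13 and Adamtsl2, and both for Adamts15 and Adamts8. The share of negative differences over all genes was not computed, so no regional effect can be read from these signs. A run of 10 MMP genes lies on chromosome 9 from 7282762 to 7697641, of which Mmp7 and Mmp12 alone were tested.

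**Figure D4:**
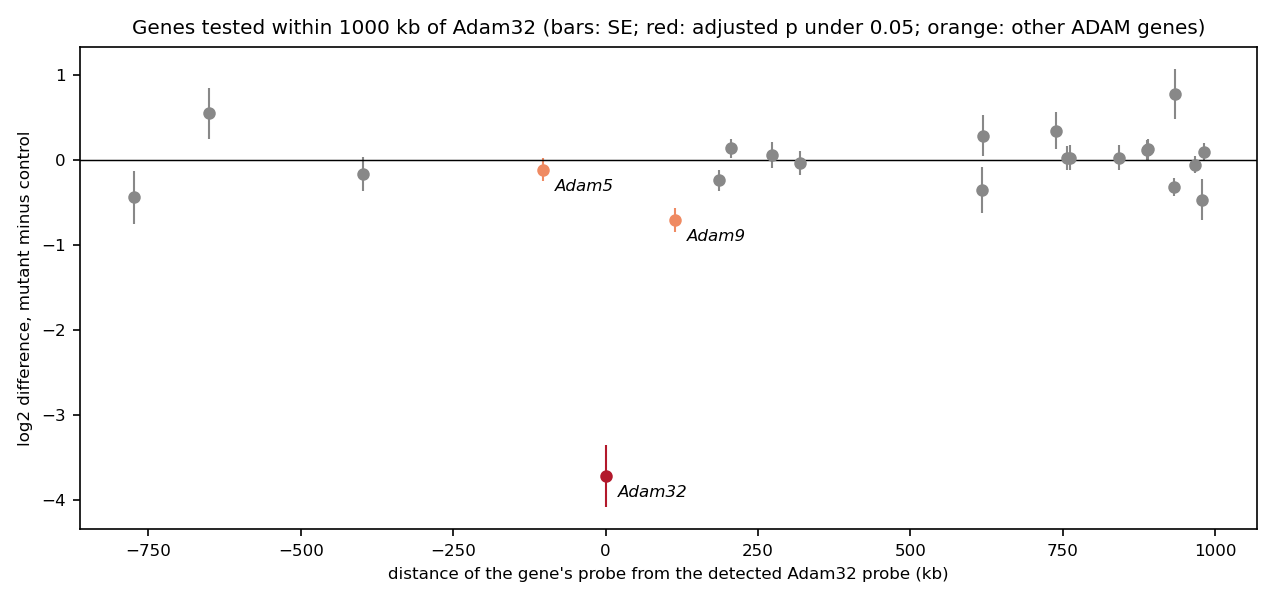
Mutant minus control difference (y axis, log2 difference, bars of 1 SE) of the 23 genes tested within 1000 kb of Adam32, by the distance of their probe from the detected Adam32 probe (x axis, kb), with Adam32 in red and the other ADAM genes in orange. Adam32 at -3.72 stands alone, Adam9 at -0.70 is the next lowest, and all other genes lie above -0.5.

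Of the 8 sheddases tested, 0 rose and 0 fell, and 4 had groups that did not overlap, 1 with mutants higher and 3 with mutants lower (backgrounds 12.3% and 14%). Adam9, a widely expressed sheddase, read 1.11, 1.31 and 1.42 in mutants A, B and C, against 1.82, 1.99 and 2.14 in controls A, B and C. Every mutant sample was below every control sample, and the difference of -0.70 (SE 0.14) missed the threshold at an adjusted p of 0.0626. Its adjusted p was under 0.05 in 3 of 20 alternatives. These were the deposited table's values (0.0452), the filter on all 6 arrays (0.0486) and limma's variance trend and robust option (0.0316). With slide as a block it was 0.0828, and with any 1 array left out it lay between 0.0646 and 0.223. Adam15, an ADAM with an integrin-binding domain, ran the other way, at 2.71, 3.1 and 3.06 in mutants A, B and C and 2.44, 2.29 and 2.35 in controls A, B and C. All mutants were above all controls, with a difference of 0.60 (SE 0.14, adjusted p = 0.0886). Adam12, known from muscle and fat development, had narrow groups, at -1.72, -1.66 and -1.65 in mutants, against -1.25, -1.35 and -1.26 in controls. Its difference was -0.39 in the test (SE 0.09, adjusted p = 0.0936), and -0.41 within each slide. The other Adam12 probes on the array were above background on no array.

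Adam10, the sheddase that starts Notch signalling and cuts the amyloid precursor protein, read 0.84, 0.87 and 0.85 in mutants A, B and C, and 1.14, 0.95 and 1.01 in controls A, B and C. The groups were separate but close, and the difference of -0.18 (SE 0.10, 95% interval -0.42 to 0.06) did not pass (adjusted p = 0.372). The interval reaches down to a fall of 0.42 and up to a rise of 0.06 on the log2 scale. Adam17, which releases TNF and ligands of the EGF receptor, read -4.0, -3.88 and -3.34 in mutants A, B and C, and -3.47, -4.14 and -4.25 in controls A, B and C. Its groups overlapped through control A, at a difference of 0.21 (SE 0.27, 95% interval -0.45 to 0.88, adjusted p = 0.689). Adam8, known from leukocytes, was at 0.20 (adjusted p = 0.804), with mutants between -2.64 and -2.43 and controls spread between -3.44 and -1.83, control A highest. Adam33 was at -0.26 (adjusted p = 0.410) and Adam19 had the same mean in both groups, -3.94.

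Control A was the highest control for Adam8 and Adam17, as well as for Mmp2, Mmp14, Timp1 and Timp2 described below. It was also the highest control for many other members, among them Timp3, Timp4, Adam10, Adam15, Adam25 and Adam39. For others, such as Adam9 and Adam32, it was the lowest. As the only control on slide 1, it cannot be told apart from a difference between slides. The summed level of mesenchyme and stellate markers was also highest on control A. Of those 8 markers, 7 were tested and Pdgfra was not. That sum was 3.32, 3.40 and 3.14 in mutants A, B and C, and 3.64, 2.72 and 2.30 in controls A, B and C. The sum of 7 leukocyte and macrophage markers was 4.40 to 4.76 in mutants and 5.02 to 5.16 in controls, with 0 of the 7 called. The probes of Itgam (-0.49) and Cd3e (-0.55) carry most of that sum. Cd68 (-0.29), Lyz2 (-0.37) and Csf1r (-0.061) were of the same sign with overlapping groups, and Ptprc (0.17) and Adgre1 (0.16) of the opposite sign. The mean log2 level of the 7 overlapped, at -1.01 to -0.61 in mutants and -0.87 to -0.27 in controls. Acinar markers spread more in mutants, at 9.5, 10.9 and 11.4 on arrays A, B and C, than in controls, at 10.1 to 10.5. Endothelial markers overlapped, at 4.35 to 4.55 in mutants and 4.37 to 4.61 in controls. The part of these cells in the members' values was not tested, and in pooled islets fewer cells of a type cannot be told apart from less RNA per cell.

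The 3 ADAMs of neurons lack an active site, and Adam22 and Adam23 are receptors for the secreted LGI proteins. None passed the test. Adam23 read -2.05, -2.02 and -1.95 in mutants A, B and C, against -2.60, -2.94 and -2.59 in controls A, B and C. All mutants were higher, with a difference of 0.70 (SE 0.13, adjusted p = 0.0567), and it was called when genes had to be above background on all 6 arrays (0.0437). Its second probe, 3.45 kb away, was at 0.25 (SE 0.13). Adam11 was at -0.43 (SE 0.16, adjusted p = 0.217), with mutants from 0.33 to 0.55 just below controls from 0.59 to 1.12, and its second probe was at 0.11. Adam22 was at 0.28 (adjusted p = 0.437), and its groups overlapped. Of the 4 Lgi ligand genes, 0 were called: Lgi1 was at -0.77 (SE 0.19, adjusted p = 0.0936) and Lgi3 at 0.77 (SE 0.19, adjusted p = 0.103), without overlap in opposite directions.

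Among the 14 ADAMTS proteases tested, 0 were called and differences ran from -0.92 to 0.65, with a median of 0.05. Adamts12, which degrades cartilage oligomeric matrix protein, read -6.20, -7.04 and -6.36 in mutants A, B and C, and -5.62, -5.47 and -5.74 in controls A, B and C. It was above background on 1 mutant array and on all controls, and its difference of -0.92 (SE 0.24, adjusted p = 0.107) was 0.0056 after normexp background correction. Adamts17, known in humans from disorders of fibrillin-rich tissue, was at -0.64 (SE 0.17, adjusted p = 0.119), from -2.78 to -2.31 in mutants and from -2.15 to -1.75 in controls. Adamts18 was the member of this class with the highest difference, at 0.65 (SE 0.18, adjusted p = 0.120), with mutants from -2.40 to -1.90 and controls from -3.01 to -2.60. The groups of these 3 genes did not overlap.

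Adamts8 depended on the probe. Its brighter probe read -2.32, -2.01 and -2.63 in mutants A, B and C, and -1.79, -1.79 and -1.90 in controls A, B and C, a difference of -0.49 (SE 0.17, adjusted p = 0.195). Its other probe, 19.3 kb away, read -3.96, -3.17 and -6.39 in mutants A, B and C, and -5.63, -6.14 and -5.91 in controls A, B and C. Mutants A and B were high on that probe and mutant C was not, so its difference of 1.38 had an SE of 0.80. The proteases that cut versican and aggrecan did not pass: Adamts1 was at -0.25, Adamts4 at 0.57, Adamts9 at 0.14 and Adamts15 at -0.22, with adjusted p values from 0.422 to 0.632. The procollagen-processing Adamts2 and Adamts14 were at 0.15 and -0.0045 (adjusted p = 0.756 and 0.994). Adamts13, which cuts von Willebrand factor, was at 0.20 (adjusted p = 0.538) and above background on 1 mutant array.

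Of the 3 ADAMTS-like genes tested, Adamtsl4, known in humans from the fibrillin fibres of the lens, read -0.82, -1.11 and -1.0 in mutants A, B and C, against -0.57, -0.34 and -0.39 in controls A, B and C. All mutants were lower, by 0.54 on average (SE 0.13, adjusted p = 0.0886, 0.0644 with slide as a block). Adamtsl5 had the second lowest difference of all members, -1.30, but an SE of 0.95 and an adjusted p of 0.487. Its probe read -0.63, -3.04 and -3.01 in mutants A, B and C, and -2.63, -0.095 and -0.070 in controls A, B and C. The 3 arrays of slide 2 were all high and the 3 of slide 1 all low, and within slides 1 and 2 the differences were -0.40 and -0.55. The second Adamtsl5 probe, 1.45 kb away, was at 0.44, from -4.03 to -1.41 in mutants and from -3.78 to -2.64 in controls. Adamtsl2 was at -0.032 (adjusted p = 0.946).

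Of the 4 membrane-type MMPs tested, 0 were called. Mmp14, which activates pro-MMP2 at the cell surface, read -4.53, -5.01 and -5.13 in mutants A, B and C, and -4.03, -4.29 and -4.75 in controls A, B and C. Mutant A and control C crossed, and the difference of -0.53 (SE 0.24, 95% interval -1.13 to 0.06) did not pass (adjusted p = 0.292) and was -0.18 after normexp background correction. Within slide 1 the Mmp14 difference was -1.04, and within slide 2 it was -0.0070. Mmp17, a lipid-anchored MMP, was at -0.50 (SE 0.13, adjusted p = 0.105), with mutants from -1.53 to -1.41 and controls from -1.19 to -0.85. Mmp24, known from neurons, was at 0.41 (SE 0.13, adjusted p = 0.168), from -2.71 to -2.51 in mutants and from -3.21 to -2.84 in controls, while its second probe was at -0.071. The groups of Mmp17 and of the brighter Mmp24 probe did not overlap, and Mmp15 was at -0.022 (adjusted p = 0.935).

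Among the 6 secreted or other MMPs tested, all had overlapping groups and 0 were called. Mmp2, a gelatinase that cuts basement membrane collagen, read -5.14, -5.04 and -5.60 in mutants A, B and C, and -4.99, -5.84 and -6.26 in controls A, B and C. Control A was the highest of the 6 samples, and the difference was 0.44 (SE 0.35, 95% interval -0.40 to 1.29, adjusted p = 0.515), or 0.27 after normexp background correction. Within slide 1 Mmp2 was at -0.33, and within slide 2 at 0.92. Mmp12, the macrophage elastase, and Mmp28, epilysin, were high on mutant C alone, at -3.18 and -2.33, while the other mutant samples were between -5.70 and -4.37. Mmp12 was above background on 1 mutant array and Mmp28 on 2, so their fitted differences of 0.74 and 0.63, and of -0.052 and -0.27 without mutant C, rest partly on signals below background. Mmp7, matrilysin, above background on 1 mutant array, ranged from -6.13 to -4.31 in mutants and from -5.88 to -3.95 in controls. Mmp11, stromelysin 3, had the same mean in both groups, -3.74, and Mmp23 was at 0.33 (adjusted p = 0.678), with mutant B at -2.71 and every other sample at or below -3.39.

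All 4 inhibitors were tested, Timp4 only through the control group, and at the gene level 0 rose and 0 fell. The brighter Timp2 probe read 2.77, 2.62 and 2.80 in mutants A, B and C, and 2.71, 2.25 and 2.25 in controls A, B and C. Control A lay among the mutants, and the difference was 0.33 (SE 0.16, 95% interval -0.06 to 0.72, adjusted p = 0.315). The other Timp2 probe, which starts 8.82 kb away, read -0.058, 0.15 and -0.036 in mutants A, B and C, against -0.53, -0.76 and -0.82 in controls A, B and C. On this probe all mutants were above all controls. Fitted probe by probe over 28361 probes, where 2.75% were called, it rose by 0.72 (SE 0.13, limma adjusted p = 0.0458). Both probes pointed the same way, and the test of Timp2 thus depends on which probe stands for the gene. At the gene level Timp2 was called in 0 of 20 alternatives, the mean over its probes among them. The called probe was not fitted with arrays left out or with slide as a block.

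Timp1, an inhibitor induced in injury, read -2.83, -3.67 and -3.89 in mutants A, B and C, and -3.18, -4.25 and -4.64 in controls A, B and C. The groups overlapped, at 0.56 (SE 0.45, 95% interval -0.53 to 1.66, adjusted p = 0.523), and the difference was -0.60 within slide 1 and 1.61 within slide 2. Timp3, the matrix-bound inhibitor that also blocks ADAM17, read 1.91, 1.89 and 2.25 in mutants A, B and C, and 2.06, 1.89 and 1.88 in controls A, B and C. Its difference was 0.074 (SE 0.14, 95% interval -0.26 to 0.41, adjusted p = 0.786), which leaves room for a change of up to 0.41 on the log2 scale. Timp4 read -5.90, -6.91 and -5.60 in mutants A, B and C, of which 1 array was above background, and -5.41, -5.53 and -5.66 in controls A, B and C. Its difference was -0.60 (SE 0.34, 95% interval -1.43 to 0.22, adjusted p = 0.375), and it was -0.067 after normexp background correction.

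Of the 83 genes, 14 had more than 1 tested probe, and in 8 of these both probes had the same sign. The opposite signs were those of Adamtsl5, Adamts8, Adam11, Adam5, Adamts2 and Mmp24. Except for the second Timp2 probe, no second probe was called. Adam17's 2 probes overlap by 52 bases and read 0.21 and 0.39, neither past the test. The other probes of Adam12, Adam26a, Adam32, Adamts12, Adamts13, Mmp12 and Mmp28 were above background on no array. The values of these genes rest on 1 probe each.

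**Figure D5:**
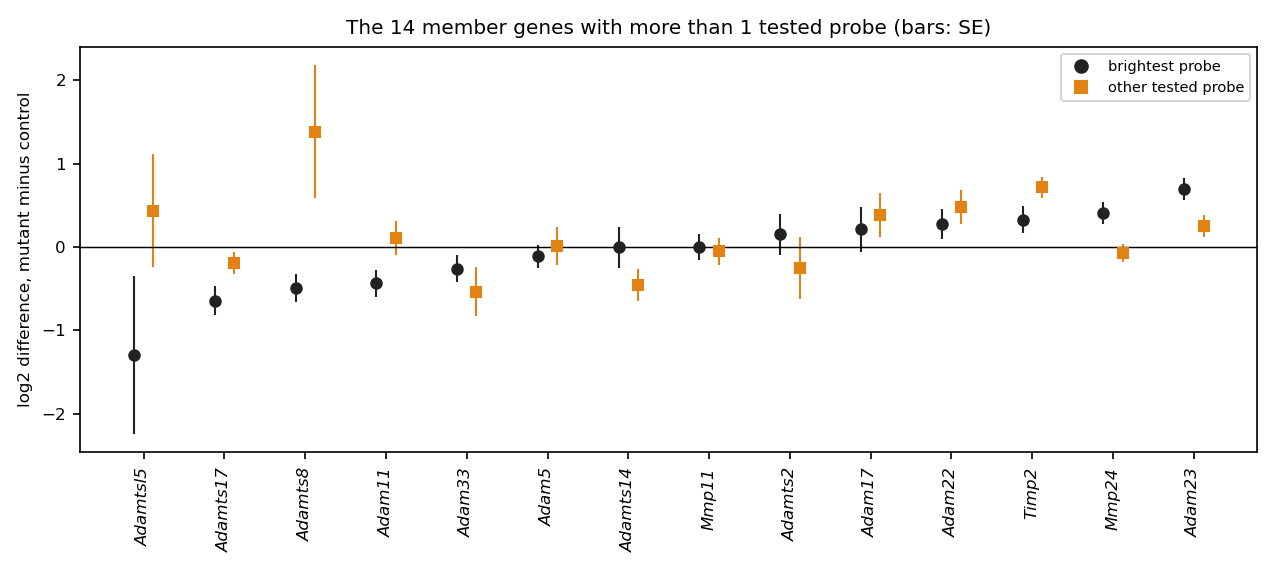
Mutant minus control difference (y axis, log2 difference, bars of 1 SE from the probe-level fit) of both tested probes of the 14 member genes that had more than 1, with the brightest probe as a black circle and the other as an orange square. The probes of Adamts8 lie on opposite sides of 0 at -0.49 and 1.38, and those of Timp2 lie on the same side at 0.33 and 0.72.

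Genes that regulate these enzymes, or are cut by them, were read from a list. It also held other proteases, the LGI ligands and other ADAMTS-like genes. The list came to 70 genes on the array, of which 60 were tested. Of these 2 rose and 0 fell, where 1.41% and 1.12% of all genes tested were called higher and lower. The groups did not overlap for 10 genes with mutants higher and 7 with mutants lower (backgrounds 12.3% and 14%). Both called genes encode shed membrane proteins. Cd44, a hyaluronan receptor cut by ADAM10 and MMP14, read 0.62, 1.43 and 1.06 in mutants A, B and C, against -0.24, -0.67 and -0.41 in controls A, B and C. It rose by 1.48 (SE 0.23, limma adjusted p = 0.0409), and its 4 probes ran from 1.39 to 1.48. With 1 array left out at a time it stayed called only without mutant A (0.0411), and the adjusted p otherwise lay between 0.0601 and 0.158. Scaling to the median (0.0508) and no filter on dim probes (0.0610) ended the call too, and it held in 11 of 20 alternatives. Notch1, the receptor released by ADAM10, rose by 2.21 on its brighter probe (SE 0.36, limma adjusted p = 0.0434), from -1.61 to -0.67 in mutants and from -3.80 to -2.67 in controls. Its other probe, above background on 1 mutant array, was at -0.36, and the mean of both was at 0.92 (adjusted p = 0.146). With 1 array left out at a time Notch1 stayed called only without control A (0.0415), and the adjusted p otherwise lay between 0.0575 and 0.168. It was 0.0660 with no filter on dim probes, and the call held in 11 of 20 alternatives.

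Among the 8 tested regulators of ADAM10 and ADAM17, 0 were called, 3 were higher in mutants without overlap and 2 lower, against backgrounds of 12.3% and 14%. Tetraspanins of this group escort ADAM10 to the surface: Tspan33 was at 1.08 (SE 0.23, adjusted p = 0.0762), Tspan15 at 0.63 (SE 0.14, adjusted p = 0.0822) and Tspan5 at -0.49 (SE 0.10, adjusted p = 0.0671). None of the 4 proprotein convertases, which activate ADAMs and MMPs by removing their prodomain, was called. Of the 19 matrix substrates, 0 were called, and their median was 0.22. Large differences outside the called genes were those of the metalloprotease Mep1a at 1.93 (SE 0.37, adjusted p = 0.0610), the proteoglycan gene Bcan at 1.33 (SE 0.55, adjusted p = 0.252) and Thsd4, an ADAMTS-like gene, at -1.14 (SE 0.24, adjusted p = 0.0731). The signal of Comp, a matrix substrate of ADAMTS12 named for its fitted difference of -1.26, was not well above background on any mutant array, at -7.35 ± 0.77, against -6.09 ± 0.16 in controls (SD, n = 3 each). As the mutant level is a bound, that difference is not a measured one. The lowest signals among probes above background on mutant arrays A and B, -5.91 and -5.75, lay above every control value of Comp, from -6.23 to -5.92. No fall can be read on those arrays, and the "at least" value of 1.12-fold rests on mutant C alone. Comp was tested only through the control group and was not called (limma adjusted p = 0.143).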

How the data were processed

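Total RNA (150 ng) of 6 pooled islet samples was hybridised to 1 single-colour Agilent array each. The intensity values are those the authors deposited: processed Cy3 signals per spot, background-corrected by Agilent Feature Extraction 10.7.3.1 per the submitters' processing notes and the file headers, with flags for signal well above background, saturation and outliers (other values), also deposited. Array positions are mm9, per the file headers. A deposited table of values in the same linear intensity unit ranked spots as the median signal did (rank correlation at least 0.999). Its column medians were 272.8, 274.5 and 274.55 in mutants A, B and C and 270.15, 266.95 and 268.3 in controls A, B and C; its scaling is unknown, and it served as an alternative. Precision is limited by the 3 arrays per group.

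Spots of a probe were averaged as log2 signals, minus the 75th percentile of each array's non-control spots. A probe was tested if most of its spots were well above background on all arrays of at least 1 group, and the brightest tested probe stood for its gene. Groups were compared with limma 3.58.1 (R 4.3.3), without covariates, two-sided. A fold is an "at least" value where no array of a group was above background: the bright group's mean against the dim group's mean of, per array, the higher of the probe's own signal and the lowest signal among probes above background. Of 83 members, 80 matched a current RefSeq symbol by accession and 0 had changed. The script was tested on simulated data. There, 37.5% of genes with a log2 change of -1 or 1 were called, as were 72.5% at -2, 75% at 2 and 95% at -4. Most changes of 1 were thus missed in the simulation. The alternatives were background correction, scaling, filters, slide or replicate as a block, the handling of probes, the threshold, and arrays left out.

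The members and gene lists were chosen with earlier results of these data known. Named by rule were called members, members at 1 or more in log2 difference, Adam10, Adam17, Mmp2, Mmp14 and the TIMPs, members whose probes disagreed, undetected members, and of the pathway list the called genes and the 4 largest other differences. Other genes with values were named after their values were seen.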

Additional observations from a re-analysis of the deposited data

How the results depend on the processing

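The main result, 576 genes called with 0 members higher and 2 lower, was set against 20 alternatives. Members called lower numbered 1 under quantile normalization, scaling to the median, no filter on dim probes and slide as a block, in each case Adam32, since Adam25 was at adjusted p values of 0.0563, 0.0675, 0.0754 and 0.0641. When all 6 arrays had to be above background, 1 member, Adam23, was called higher. At an adjusted p under 0.1, 1514 genes were called, with 2 members higher and 6 lower. Leaving out 1 array gave between 13 and 418 genes, with 0 to 1 members lower and 0 higher. The lowest counts were 13 for control B, 20 for mutant B, 21 for control C and 72 for mutant C, and leaving out mutant A gave 283. With mutant arrays A and B both left out, a choice made after the data were seen, 0 genes and 0 members were called by limma in either direction, and the lone mutant was assumed to vary like the controls.

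With the letters A to C as a replicate block 0 genes and 0 members were called in either direction, while 3163 genes and 16 members had an unadjusted p under 0.05. The labels do not say that letters pair samples. Deviations of same-letter samples from their group means correlated at -0.23, -0.19 and -0.031, and 0 of 6 samples correlated best with their own letter.

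Of the 36 genes recomputed under each alternative, which are not all the members, signs turned for 9, none of them called. Outside that set, every tested member except Adam7 differed in sign between slides 1 and 2. Examples are Adam26b (0.81 and -1.82), Adamts7 (-0.46 and 0.54), Adam4 (0.080 and -0.18) and Adamts6 (0.20 and -0.11). Some members of the set did so too, such as Adam8 (-0.77 and 0.77). Under normexp Adam26a was at 0.10 and Adamts12 at 0.0056, Adamts8 was at 0.45 by the mean of its probes, and without mutants A and B Mmp7 was at 0.56 and Mmp23 at -0.10. With 1 array left out, Adam8 ran from -0.15 to 0.66, Mmp12 from -0.052 to 1.19, Mmp28 from -0.27 to 1.41, Mmp23 from -0.091 to 0.58 and Timp3 from -0.044 to 0.14. Fewer samples were fitted where arrays were left out, and the cause of the other shifts was not tested. Genes below background have no measured level.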
